A study of Mus musculus with 11 samples.

Results

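This report concerns splenic regulatory T cells (Tregs) of mice that bore MC38 tumors, compared between animals with and without a Treg-specific deletion of Cd177. The members are all listed genes that reached 0.5 on the log2(n + 1) scale when averaged over the 6 spleen libraries, which were 13599 of 14604 genes and left 1005 below the minimum. The last gene inside the minimum had a mean of 0.5001 and the first outside it 0.4998. The knockout group comprised 3 libraries labelled CD177flox/flox/FOXP3-CreYFP and the wild-type group 3 libraries labelled CD177flox/flox. Both groups therefore carried floxed Cd177 alleles, and the Cre recombinase, fused to yellow fluorescent protein and driven by Foxp3, was present in the knockout group alone. An effect of the Foxp3-Cre allele itself cannot be told apart from that of the lost Cd177. All mice carried grafts of MC38, a mouse colon adenocarcinoma line, and the labels name no drug. The age of the mice and the number of animals behind a library are not given in the labels. The series also holds 5 libraries of tumor Tregs, 3 wild-type and 2 knockout. Spleens were taken from the same tumor-bearing mice, and live CD4+GITR+CD25+ cells were sorted, depleted of ribosomal RNA and sequenced.

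Tregs are CD4+ T cells that restrain immune responses and depend on the transcription factor FOXP3. In the spleen many of them are central, or resting, Tregs, which recirculate through lymphoid organs using receptors such as CCR7 and S1PR1, and fewer are effector Tregs, which carry receptors for inflamed tissue and make suppressive molecules. CD177 is a surface glycoprotein best known from neutrophils, where it associates with integrins at the membrane and binds PECAM-1. It has also been found on Tregs of some tumors.

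No gene passed the test between knockout and wild-type splenic Tregs. Of the 13599 genes, limma called 0 (0%) at a Benjamini-Hochberg adjusted p below 0.05, and the smallest adjusted p was 0.995. At an unadjusted p below 0.05 there were 504 genes, or 3.71% of those tested. Of them 269 had higher values in the knockout (1.98% of all genes) and 235 had lower values (1.73%). All 3 knockout libraries lay above all 3 wild-type libraries for 661 genes (4.86%) and below them for 585 genes (4.3%). Means were higher in the knockout for 52.1% of all tested genes and lower for 47.9%. The median difference over all genes was 0.006 on the log2(n + 1) scale, on which every level and difference here is given, and the 5th and 95th percentiles were -0.259 and 0.256. A value of n is what the authors' quantification gave a gene before their log transform, and for genes with low values the added 1 makes differences look smaller than they are.

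The spread between libraries bounds how large an undetected difference could be. The 95% interval of the difference lay wholly between -1 and 1 for 13074 genes (96.1%), and for 8289 (98.5%) of the 8419 genes with a mean of at least 3. The median half-width of the interval was 0.289, and 0.237 for those better expressed genes. A difference of 1 or more in either direction was seen for 21 genes (0.154%), 12 of them higher and 9 lower, and 10 of the 21 had a mean of at least 3. The fit says nothing firm about changes smaller than these intervals. The intervals are those of single genes, not adjusted for the number tested, and no gene whose interval excluded 0 was called.

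**Figure D1:**
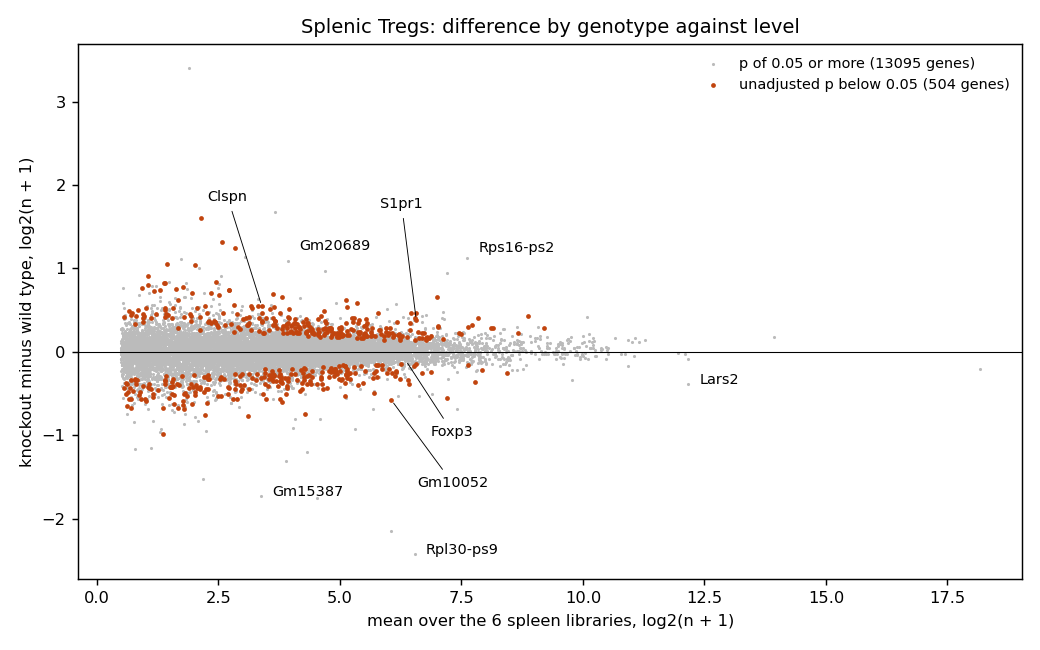
Difference between knockout and wild-type splenic Tregs (vertical axis, log2(n + 1)) against the mean level over the 6 spleen libraries (horizontal axis, log2(n + 1)), with 1 point per gene and the 504 genes at an unadjusted p below 0.05 in red. Most points lie close to 0, and of the 21 genes at a difference of 1 or more in either direction 5 are red and 16 grey, Rpl30-ps9 at -2.43 among the grey.

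The libraries of the 2 genotypes were about as alike as those of 1 genotype. Pearson's r across genes, which are not independent replicates, ran from 0.9812 to 0.9879 over the 6 pairs of the same genotype and from 0.9828 to 0.9906 over the 9 pairs of different genotype. The total of n per library was 790299, 712832 and 789103 in knockout replicates 1, 2 and 3 and 742814, 812007 and 844331 in wild-type replicates 1, 2 and 3, an order kept for all values below. These totals did not separate the genotypes (exact two-sided permutation test, p = 0.4, where 3 against 3 cannot go below 0.1). The methods give only an approximate read depth for the libraries, and the depth of each cannot be read from these values.

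The sequences shown next are those of the transcript that held the most signal and of copies that decide how some values are read. They were read from GENCODE M21 transcripts (GRCm38, also called mm10). Gm12896, annotated as a processed pseudogene of 226 bases at chr4:122122847-122123072 on the plus strand, held 37.6% of n on average. The capitals mark the 224 bases that are identical in the neighbouring entry Gm12895.
Gm12896: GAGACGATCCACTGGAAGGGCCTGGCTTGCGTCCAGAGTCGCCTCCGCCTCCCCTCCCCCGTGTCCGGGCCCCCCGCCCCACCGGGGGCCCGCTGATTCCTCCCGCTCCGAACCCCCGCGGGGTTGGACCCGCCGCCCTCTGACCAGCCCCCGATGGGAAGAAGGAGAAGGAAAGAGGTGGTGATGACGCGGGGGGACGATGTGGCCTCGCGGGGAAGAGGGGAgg
Gm20594, the second highest gene with 2.01% of n, lies at chr6:79817916-79818364 on the plus strand and was 88.4% identical over 439 aligned bases to mt-Rnr2, the gene of the mitochondrial large ribosomal RNA. A stretch of this alignment is shown, and the capitals mark the 4 of 97 bases that differ.
Gm20594: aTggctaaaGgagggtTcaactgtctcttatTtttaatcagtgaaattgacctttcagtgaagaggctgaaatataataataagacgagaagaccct
mt-Rnr2: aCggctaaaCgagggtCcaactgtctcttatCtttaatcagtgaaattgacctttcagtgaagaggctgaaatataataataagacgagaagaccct
Gm10052, the gene with the smallest p of all, is a processed pseudogene at chr9:123689233-123690192 on the minus strand, and its whole 960 bases are identical to a stretch of Hnrnpa1. Its first 60 bases are shown, in capitals because all of them are shared.
Gm10052: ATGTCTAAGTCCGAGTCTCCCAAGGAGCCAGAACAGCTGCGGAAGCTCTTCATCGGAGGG

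The most abundant transcripts of splenic Tregs were those of cytoskeleton, translation, respiration and antigen presentation, below the 2 entries just shown. Gm12896 took 37.1%, 31.4% and 39.0% of n in the knockout libraries and 37.1%, 38.6% and 42.4% in the wild-type libraries, which overlap (exact permutation test, p = 0.5). The 20 highest genes together held 45.3% of n. After Gm12896 (mean 18.16) and Gm20594 (13.93) came Lars2 (12.17), which encodes the mitochondrial leucyl-tRNA synthetase, Actb (12.17), the gene of beta-actin, and Eef1a1 (12.09), a translation elongation factor. Tmsb4x (11.08), which encodes an actin-binding thymosin, and H2-K1 (10.93) and B2m (10.51), the heavy and light chain of class I MHC, were also among them, as were 4 mitochondrially encoded genes and 5 ribosomal protein genes or copies.

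Levels of Lars2 were the least even of the 20 across libraries. Lars2 was placed in a list of genes for RNA quality, and 97 of its bases align at 94.8% identity to AA474408 (mean 9.77). Whether its values reflect the synthetase transcript or RNA quality was not tested. It stood at 12.68, 11.59 and 11.66 in the knockout libraries and at 11.19, 12.66 and 13.25 in the wild-type libraries, so the lowest and the highest library were both wild type. Actb, by contrast, ran only from 12.09 to 12.32. Mitochondrially encoded transcripts took 2.51% to 3.15% of the remaining n in the knockout and 2.45% to 3.34% in the wild type (exact permutation test, p = 1.0). Ranked per kb of annotated length, 11 of the 20 genes stayed among the highest 20, Gm12896 and Gm20594 still leading. Of the 20 genes, 12 had a stretch of at least 75 bases that was at least 98% identical in another gene, so reads may have been divided between copies.

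**Figure D2:**
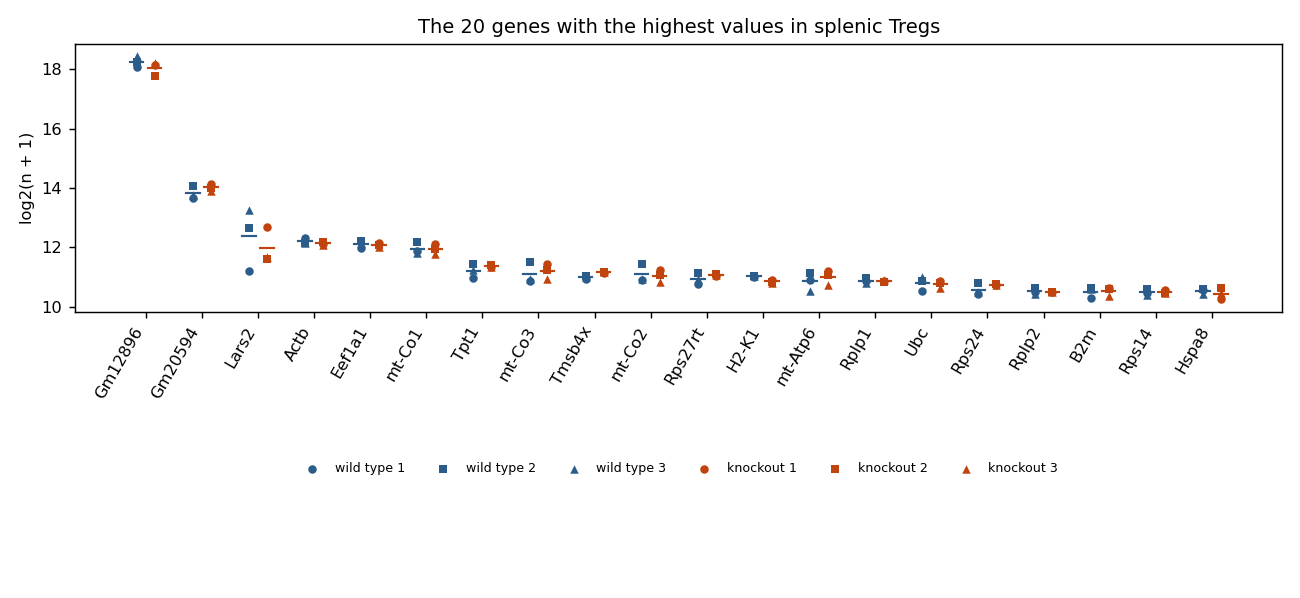
Level of the 20 most abundant genes (vertical axis, log2(n + 1)) in each of the 3 wild-type (blue) and 3 knockout (red) spleen libraries, with a bar at each mean and a marker shape for each replicate number. Gm12896 stands near 18, and Lars2 has the widest spread, from 11.19 to 13.25, with both ends in wild-type libraries.

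The targeted gene could not be read from these values. Cd177 (chromosome 7, 24743983 to 24760311, minus strand) is not listed, so the genotype labels were not checked from it here. Within 250 kb of it 12 genes were tested, with differences from -0.30 to 0.35 and none at an unadjusted p below 0.05. The difference of 0.35 was that of Cd79a, a B-cell gene that was highest in knockout replicate 2. Foxp3 (chromosome X, 7573644 to 7595245, plus strand), which drives the Cre, was at 6.23, 6.67 and 5.98 in the knockout and at 6.17, 6.75 and 6.28 in the wild type. The groups overlapped and the difference was -0.10 (95% interval from limma, as in all parentheses of this kind, -0.59 to 0.38). Its annotated exons share 590 bases with Ccdc22 and 266 with Ppp1r3f on the other strand. The 13 tested genes within 250 kb of Foxp3 differed by -0.21 to 0.07, with none at an unadjusted p below 0.05.

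Genes for CD177 partners and related adhesion proteins were present in part. Of the list of 6, Prtn3, a neutrophil protease gene, is not listed, and none of the other 5 reached an unadjusted p below 0.05. Pecam1, the gene of PECAM-1, was at 6.24, 6.0 and 5.99 in the knockout and at 5.90, 5.97 and 5.89 in the wild type. Each knockout library was above each wild-type library, yet the difference was only 0.15 (-0.04 to 0.35). Itgal, the alpha chain of the integrin LFA-1, differed by -0.10 with overlapping libraries. Itgam, the alpha chain of Mac-1 on myeloid cells, was low, from 0.49 to 2.66, and highest in knockout replicate 2.

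The sorted cells expressed the genes of their gate and of Treg identity in both genotypes. All 7 genes of the gate were tested and none reached an unadjusted p below 0.05. Cd4, the coreceptor, was at 7.78, 7.52 and 7.67 against 7.91, 7.60 and 7.82, a difference of -0.12. Il2ra, which encodes CD25, was at 7.46, 7.32 and 7.07 against 7.02, 7.41 and 7.29, and Tnfrsf18, which encodes GITR, ran from 6.30 to 6.48 against 6.33 to 6.59. The differences were 0.05 (-0.26 to 0.35) and -0.07 (-0.27 to 0.13), and the libraries of the groups overlapped.

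Of the 15 Treg identity genes 1 reached an unadjusted p below 0.05, and 13 had a lower mean in the knockout, as 47.9% of all genes did, with a median difference of -0.07 beside 0.006 over all genes. That gene was Ctla4, the inhibitory receptor that strips costimulatory ligands from antigen-presenting cells. Its values were 8.37, 8.41 and 8.12 in the knockout and 7.86, 8.13 and 8.03 in the wild type. Knockout replicate 3 lay just below wild-type replicate 2, and the difference was 0.29 (0.05 to 0.54, adjusted p = 0.995). Ikzf2, the gene of Helios, overlapped between the groups at 7.32 to 7.62 and 7.34 to 7.70, and so did Lrrc32, which encodes the TGF-beta docking receptor GARP, at 5.74 to 6.07 and 5.84 to 6.09. Itgae, the CD103 integrin chain, had the lowest difference of the list, -0.31 (-0.86 to 0.25).

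None of the 15 genes of central Tregs was called. A higher mean in the knockout was seen for 14 of them, beside 52.1% of all genes, and for 3 of the 15 at an unadjusted p below 0.05, beside 1.98% of all genes. The median difference was 0.09, beside 0.006 over all genes. S1pr1, the sphingosine-1-phosphate receptor with which T cells leave lymphoid organs, was at 6.63, 6.87 and 6.78 in the knockout and at 6.39, 6.61 and 6.16 in the wild type. The groups did not overlap, though the nearest libraries were close, and the difference was 0.38 (0.09 to 0.66). Klf2, the transcription factor that maintains S1pr1, was at 7.85, 7.95 and 7.53 against 7.40, 7.62 and 7.41, a difference of 0.30 (0.02 to 0.58) with knockout replicate 3 inside the wild-type range. Ccr7, the receptor that leads T cells into the T-cell zone, was at 6.44, 6.37 and 6.32 against 6.11, 6.31 and 6.15, a difference of 0.19 (0.01 to 0.36). None of the 3 was called, since each had an adjusted p of 0.995.

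The other members of this list had smaller or less even differences. Lef1, a transcription factor of resting T cells, was above the wild type in each knockout library, by 0.15 on average (-0.02 to 0.33). Tcf7, which encodes TCF1, differed by 0.09 and overlapped. Il7r, the IL-7 receptor chain, differed by 0.33 (-0.32 to 0.98), with wild-type replicate 3 lowest at 5.81 and knockout replicate 1 next at 6.14. Bach2, a repressor that keeps Tregs resting, overlapped at 6.29 to 6.37 and 6.12 to 6.52. With any single library left out, 13 or 14 of the 15 members kept a higher mean in the knockout.

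None of the 26 genes of effector Tregs was called either. A lower mean in the knockout was seen for 19 of them, beside 47.9% of all genes, and for 2 at an unadjusted p below 0.05, beside 1.73% of all genes, and the median difference was -0.09. Without wild-type replicate 3, which had the highest summed level of the list, only 9 of 26 were lower and the median difference was 0.09. Ccr6, a chemokine receptor of mucosal and inflammatory homing, was at 3.29, 3.53 and 3.27 in the knockout and at 3.68, 3.64 and 3.75 in the wild type. Every knockout library was below every wild-type library, and the difference was -0.33 (-0.58 to -0.08).

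Tbx21, the gene of T-bet, which specifies Tregs that restrain type 1 responses, was at 3.15, 3.25 and 3.25 against 3.29, 3.59 and 3.70. The groups did not overlap, and the difference was -0.31 (-0.60 to -0.01). Cxcr3, a receptor that T-bet induces, also had no overlap, at 5.23, 5.31 and 5.35 against 5.40, 5.46 and 5.37, though the difference was small at -0.11 (-0.27 to 0.04). Icos, a costimulatory receptor of effector Tregs, differed by 0.08 with overlapping libraries. Of the activation and exhaustion receptors, Pdcd1, the gene of PD-1, ran from 4.33 to 5.08 and from 4.03 to 5.35, and Lag3 from 3.48 to 3.91 and from 3.07 to 4.54, with wild-type replicate 2 lowest and a wild-type library highest in each case.

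**Figure D3:**
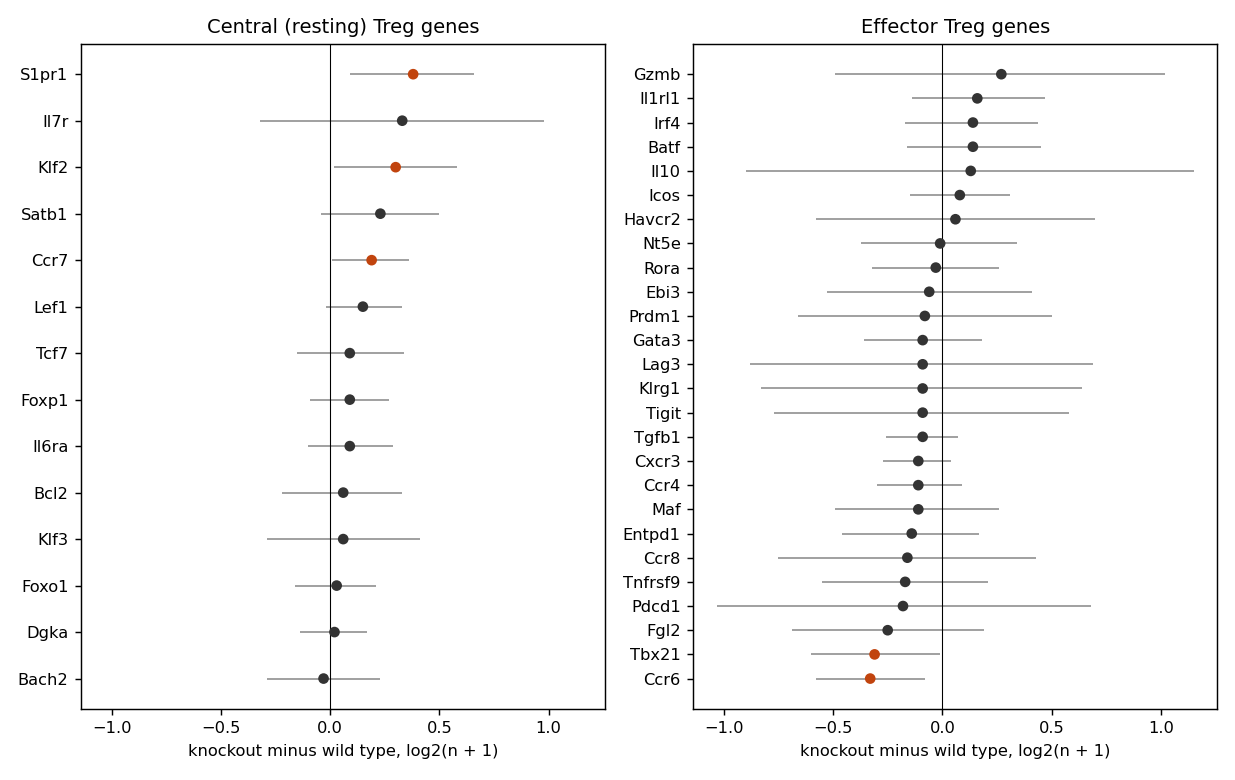
Difference between knockout and wild-type splenic Tregs (horizontal axis, log2(n + 1)) for 14 of the 15 central Treg genes (left) and 26 effector Treg genes (right), with 95% intervals from limma as lines and unadjusted p below 0.05 in red. Of the central genes drawn 13 lie right of 0 and of the effector genes 19 lie left of it, most with intervals that include 0.

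Genes of the T-cell receptor and its costimulators differed little on average. Of the 15 proximal signalling genes 1 reached an unadjusted p below 0.05, and the median difference was 0.00. Cd28, the costimulatory receptor on which Treg homeostasis depends, was at 7.18, 7.11 and 7.24 in the knockout and at 6.68, 6.87 and 7.04 in the wild type. The libraries of the groups did not overlap, and the difference was 0.31 (0.08 to 0.54). The kinase gene Lck ran from 8.30 to 8.35 and from 8.34 to 8.46, and Vav1, a guanine exchange factor, from 6.40 to 6.48 and from 6.37 to 6.49.

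Early response genes of T-cell activation had differences in both directions. Of the 20 genes 3 reached an unadjusted p below 0.05, beside 3.71% of all genes, and none was called. Cd69, which holds T cells in tissue by opposing S1PR1, was at 6.81, 6.69 and 6.38 against 6.16, 6.29 and 6.37, a difference of 0.35 (0.08 to 0.63). Tnfaip3, the gene of the NF-kB inhibitor A20, differed by 0.29 (0.06 to 0.51), at 9.24, 9.38 and 9.37 against 8.88, 9.13 and 9.14. Dusp2, a phosphatase of activated MAP kinases, differed by -0.36 (-0.71 to -0.01), at 7.28, 7.79 and 7.74 against 8.15, 7.88 and 7.85. The libraries of the groups did not overlap for these 3 genes, as for 4.86% of all genes in the higher and 4.3% in the lower direction.

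Fos and Fosb, immediate early genes of the same list, were high in 1 library of each genotype, but not all such genes were. Egr2 was at 3.69, 3.68 and 3.76 in the knockout and at 4.62, 3.25 and 4.58 in the wild type. Fos, a subunit of the AP-1 factor, was at 9.21, 8.08 and 8.04 in the knockout and at 7.61, 8.22 and 9.08 in the wild type. Fosb, its relative, was at 7.39, 5.63 and 5.50 and at 4.76, 5.63 and 7.63. Knockout replicate 1 and wild-type replicate 3 were thus the highest libraries for both, and wild-type replicate 1 the lowest. The heat shock gene Hspa1a, an inducible chaperone chosen after its values were seen, was at 6.02, 2.68 and 2.33 and at 2.81, 4.44 and 6.17, with the same pair of libraries at the top, and is 99.2% identical over 2201 bases to Hspa1b. These were also the libraries with the highest r of any pair of different genotype, 0.9906.

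Signalling through IL-2, on which Tregs depend for survival, showed no gene at an unadjusted p below 0.05 among the 14 tested. Socs1, a feedback inhibitor of this pathway, was at 5.84, 5.85 and 5.97 in the knockout and at 6.04, 6.15 and 5.97 in the wild type. Il2rb, the beta chain of the receptor, ran from 8.03 to 8.36 and from 8.14 to 8.36. Interferon-stimulated genes had a lower mean in the knockout for 16 of 20, beside 47.9% of all genes, with a median difference of -0.08 and 0 of 20 at an unadjusted p below 0.05. Isg15, a ubiquitin-like protein induced by interferon, was at 3.87, 3.47 and 3.96 against 3.69, 4.19 and 4.18, a difference of -0.25 (-0.68 to 0.17).

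Genes of the BCL-2 family, which set the threshold for apoptosis, showed no difference past the test. None of the 23 reached an unadjusted p below 0.05, and the median difference was -0.04. Bcl2l1, which encodes BCL-XL, was at 4.33, 4.51 and 4.38 in the knockout and at 4.65, 4.26 and 4.51 in the wild type, a difference of -0.07 (-0.34 to 0.21). Mcl1, another antiapoptotic member, ran from 7.59 to 7.86 and from 7.72 to 7.76, and Bcl2 from 6.04 to 6.30 and from 5.95 to 6.34. Bmf, a BH3-only activator of apoptosis, had the largest difference of the family, -0.75, at 1.31, 1.96 and 1.09 against 1.51, 2.58 and 2.51, with overlapping libraries and an interval from -1.53 to 0.04.

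Genes of the cell cycle had a higher mean in the knockout for 16 of 20, beside 52.1% of all genes, with a median difference of 0.17 and 0 of 20 at an unadjusted p below 0.05. Mki67, the gene of the proliferation marker Ki-67, was at 4.19, 4.14 and 4.38 against 4.40, 3.45 and 3.91, a difference of 0.32 (-0.20 to 0.84). Wild-type replicate 1 was as high as the knockout libraries and wild-type replicate 2 was lowest. Without wild-type replicate 2 the count was 13 of 20 and the median difference 0.02, and without wild-type replicate 1 they were 19 of 20 and 0.30.

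The 8 genes with the smallest p in the higher direction belong to none of the lists above. Clspn (chromosome 4, 126556935 to 126593903, plus strand) encodes claspin, an adaptor of the replication checkpoint. Its values were 3.74, 3.68 and 3.59 in the knockout and 3.08, 3.09 and 3.17 in the wild type, a difference of 0.55 (0.34 to 0.77). The gap between the groups was wider than the spread within either, as the choice of the gene by p makes likely.

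Wdhd1, which encodes the replisome adaptor AND-1, was at 3.43, 3.44 and 3.47 against 2.87, 2.82 and 3.02, a difference of 0.55 (0.31 to 0.78). Rb1, the retinoblastoma protein gene, which restrains entry into S phase, was at 5.80, 5.72 and 5.64 against 5.38, 5.31 and 5.30, a difference of 0.39 (0.23 to 0.55). With any single library left out the difference ran from 0.52 to 0.59 for Clspn, from 0.50 to 0.60 for Wdhd1 and from 0.35 to 0.43 for Rb1. Such narrow ranges follow from choosing genes by p in these same libraries and are no separate support. The adjusted p of the 3 genes was 0.995. Wdhd1 is 99.7% identical over 289 bases to Gm17052, and exons of Rb1 share 408 bases with Lpar6 and 488 with Rcbtb2 on the other strand.

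The other genes of that group of 8 were low, or have copies or no known role. Epn2, the gene of an endocytic adaptor, was low, at 1.78, 1.47 and 1.39 against 0.80, 0.96 and 0.69, a difference of 0.73. Trav3d-3 and Trav3n-3, variable segments of the T-cell receptor alpha chain, are identical over 427 bases and have the same values, 2.95, 2.96 and 3.32 against 2.13, 2.45 and 2.45, so they count as a single measurement of 0.74. Gm14052, a processed pseudogene, differed by 0.83, and CAAA01147332.1, on an unplaced scaffold, by 0.46 with its knockout libraries between 6.78 and 6.80.

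In the lower direction Gm10052, whose sequence is shown above, had the smallest p. It was at 5.70, 5.68 and 5.93 in the knockout and at 6.46, 6.27 and 6.33 in the wild type, a difference of -0.58 (-0.79 to -0.37, adjusted p = 0.995). Hnrnpa1, the RNA-binding protein gene it is identical to, was at 7.55, 7.33 and 7.35 against 7.26, 7.22 and 7.41, a difference of 0.11 (-0.09 to 0.31). Summed, the pair gave 7.89, 7.72 and 7.80 against 7.91, 7.82 and 7.96. The sums of the groups overlapped and differed by -0.09.

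Tsen34, a subunit of the tRNA splicing endonuclease, was at 3.32, 3.66 and 3.49 against 3.97, 4.11 and 4.07, a difference of -0.56 (-0.82 to -0.30). Its transcript is 98.5% identical over 1252 bases to 4930526A20Rik. Faap100, a subunit of the Fanconi anemia core complex, was at 3.76, 3.58 and 3.71 against 4.07, 4.17 and 4.10, a difference of -0.43 (-0.64 to -0.22). Prnp, the gene of the prion protein, was at 5.04, 4.85 and 4.87 against 5.32, 5.32 and 5.22, a difference of -0.37 (-0.55 to -0.18). In these 3 genes each knockout library was below each wild-type library.

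The last 4 of this group were Gm10800, with a difference of -0.55, Nat9 (-0.56), an acetyltransferase gene, Midn (-0.33), which encodes midnolin, a carrier of proteins to the proteasome, and Camsap1 (-0.50), which encodes a protein of microtubule minus ends. Midn was at 6.10, 6.05 and 6.10 in the knockout and at 6.42, 6.28 and 6.51 in the wild type. All 16 genes of both directions had an adjusted p of 0.995.

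**Figure D4:**
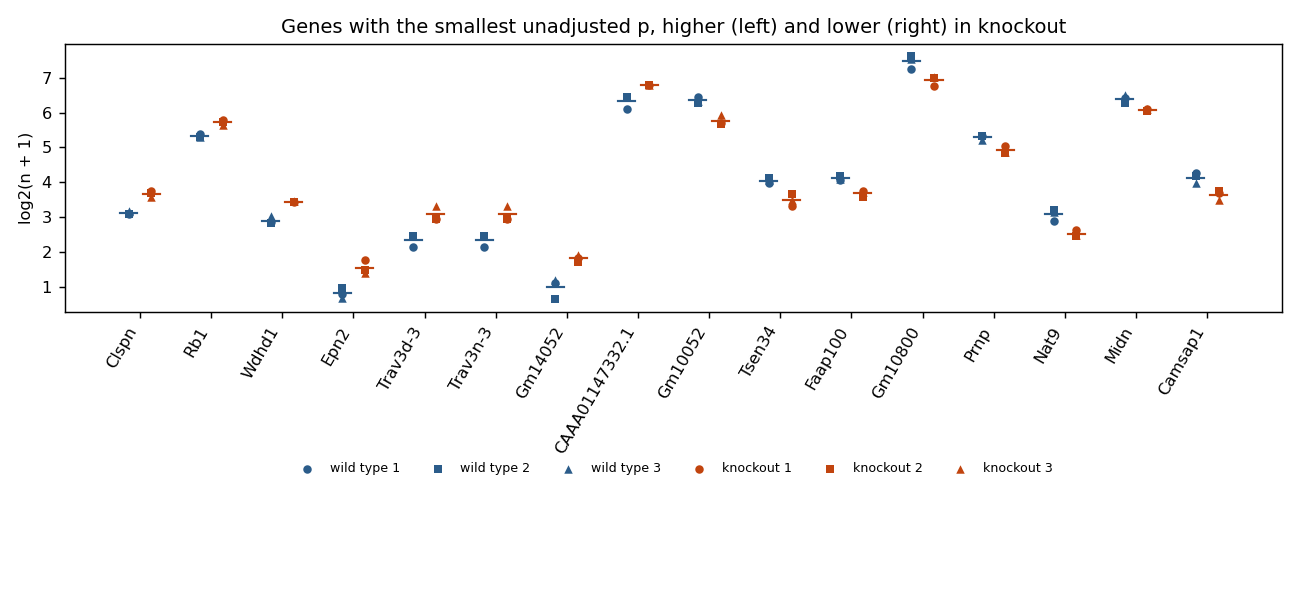
Level (vertical axis, log2(n + 1)) in the 3 wild-type (blue) and 3 knockout (red) spleen libraries of the 8 genes with the smallest unadjusted p among those higher in knockout (left) and the 8 among those lower (right), with bars at the means. The groups do not overlap for any of the 16, as such a choice by p makes likely, and the gaps are small, for example 0.39 for Rb1.

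Several of the largest differences were those of pseudogenes that copy an expressed gene. Among genes with a mean of at least 3 whose groups did not overlap, the 5 largest positive differences were Rps16-ps2 (1.13), Gm20689 (1.09), Hgs (0.69), Gm10123 (0.66) and Trav6n-6 (0.66). Rps16-ps2 is identical over 441 bases to Rps16, a ribosomal protein gene, and was at 8.28, 8.08 and 8.18 against 5.70, 8.08 and 7.38, so that the groups met at 8.08. Rps16 itself was at 10.18, 10.26 and 10.04 against 10.01, 10.30 and 10.04, a difference of 0.04. Gm20689 is likewise identical over 279 bases to Rab8b, and Gm10123 over 490 bases to Ppia, the gene of cyclophilin A. Gm20689 was at 4.13, 4.93 and 4.38 against 2.20, 4.09 and 3.88, lowest in wild-type replicate 1. Hgs, a subunit of the endosomal sorting complex, has no such copy and was at 3.86, 3.99 and 4.04 against 3.46, 2.77 and 3.57, a difference of 0.69 (0.21 to 1.17).

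Within the same limits, a mean of at least 3 and no overlap of the groups, the 5 largest negative differences were Rpl30-ps9 (-2.43), Gm15387 (-1.73), Gm7332 (-0.91), Zfp771 (-0.77) and Akap13 (-0.74). Rpl30-ps9 was at 6.64, 2.11 and 7.23 in the knockout and at 7.68, 7.88 and 7.72 in the wild type. Gm12191, which is 99.7% identical to it over 345 bases and was added after its values were seen, was at 0.10, 6.98 and 3.69 against 0.02, 0.39 and 0.15. Knockout replicate 2 was thus the lowest library for the one and the highest for the other. Their sum was 6.64, 7.02 and 7.34 against 7.68, 7.88 and 7.72, a difference of -0.76. Gm15387 was at 0.21 in knockout replicate 3 and between 3.54 and 4.37 in the other 5 libraries.

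Zfp771 and Akap13 had no near copy of that kind. Zfp771, a zinc finger gene, was at 2.73, 2.71 and 2.72 in the knockout and at 3.71, 3.75 and 3.02 in the wild type (-0.77, -1.24 to -0.31). Akap13, an anchor of protein kinase A, was at 3.85, 4.14 and 3.74 against 5.01, 4.34 and 4.61 (-0.74, -1.17 to -0.31). Each knockout library was below each wild-type library in both genes. Of the 26 genes named by smallest p or by size, 13 had a stretch of at least 75 bases at 98% identity or more in another gene.

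Transcripts of other splenic cells were present, and those of myeloid, B and plasma cells were highest in 2 libraries, 1 of each genotype. Of 18 myeloid genes all were tested, and their summed level, as the log2 of summed n, was 10.08 in knockout replicate 2, 10.01 in wild-type replicate 1 and 8.95 to 9.21 in the other 4 libraries. Of 12 B-cell genes 10 are listed, and the sum ran from 7.53 to 8.70 in the knockout and from 7.97 to 8.30 in the wild type. Cd79a, a chain of the B-cell receptor, was at 3.36 in knockout replicate 2 and at most 2.06 elsewhere. Of 11 plasma cell genes 6 are listed, and Igkc, the kappa light chain, was at 9.33 in knockout replicate 2 and at 9.27 in wild-type replicate 1, with the other libraries between 6.84 and 8.31.

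None of the marker lists of other cells had a member at an unadjusted p below 0.05. The sums of the 11 CD8 and NK genes ran from 6.27 to 7.23 in the knockout and from 6.24 to 7.07 in the wild type, and those of the 5 listed of 14 neutrophil genes from 3.99 to 4.22 and from 4.19 to 4.59. Cd177 itself marks neutrophils, whose genes S100a8, S100a9 and Ly6g are not listed. The 10 listed red cell and platelet genes ran from 7.77 to 9.09 and from 7.35 to 10.21, highest in wild-type replicate 1. Of 9 stromal genes 8 are listed and 4 were tested, and the endothelial gene Cdh5 was at 0.22 or less in each library. In these bulk samples a change in the number of cells of a type cannot be told apart from a change in their RNA per cell.

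The part of these cells in the differences above was not tested, but the comparison was repeated without those 2 libraries, an alternative chosen after seeing the data. It called 0 genes again, with 370 higher and 296 lower at an unadjusted p below 0.05. These made 666 of the same 13599 genes, beside 504 with those 2 libraries included. Without them S1pr1 differed by 0.32, Cd28 by 0.25, Ccr6 by -0.42 and Clspn by 0.53. Of the 15 central Treg genes 13 were higher in the knockout and of the 26 effector genes 16 were lower.

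**Figure D5:**
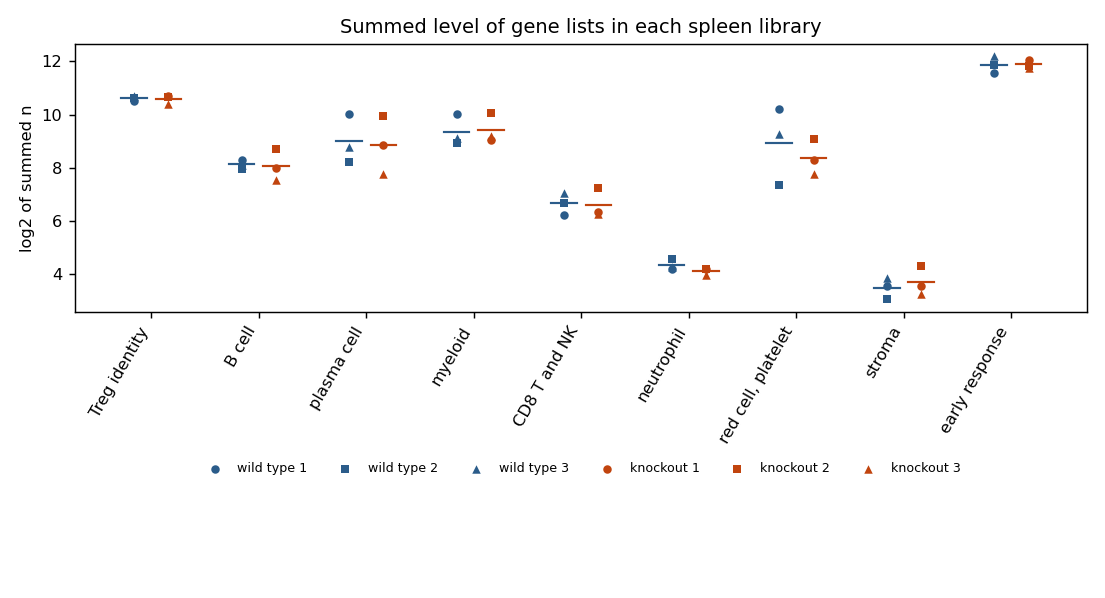
Summed level of 9 gene lists (vertical axis, log2 of summed n) in the 3 wild-type (blue) and 3 knockout (red) spleen libraries, with bars at the means and a marker shape for each replicate number. The Treg identity list is even across libraries, whereas myeloid and plasma cell sums are highest in wild-type replicate 1 and knockout replicate 2.

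Genes of the Y chromosome were present in all 6 libraries, and Xist is not listed. Of the 4 Y-linked genes 3 reached an unadjusted p below 0.05 in the higher direction, beside 1.98% of all genes. Ddx3y, an RNA helicase gene, was at 5.61, 5.65 and 5.54 against 5.31, 5.46 and 5.40, a difference of 0.21 (0.05 to 0.38). Kdm5d, a histone demethylase gene, differed by 0.19 (0.01 to 0.37), Eif2s3y, a translation factor subunit, by 0.58 (0.01 to 1.16) and Uty, another demethylase gene, by 0.22 (-0.02 to 0.45). All 6 libraries expressed each of them, the lowest value being 4.61. No call was made for any of the 4.

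The same contrast in tumor Tregs allowed a test of whether the knockout effect differed between tissues. At an adjusted p below 0.05 limma called 0 genes (0%) for this interaction, with 375 genes (2.76%) at an unadjusted p below 0.05 and a smallest adjusted p of 0.192. Of the same 13599 genes that count was 664, 362 and 410 without wild-type tumor replicates 1, 2 and 3. With a knockout tumor library left out that arm held 1 sample, whose spread was assumed to be that of the other groups, so no count is given. Of the 269 genes at an unadjusted p below 0.05 in the higher direction in spleen, 168 (62.5%) also had a higher mean in the knockout tumors, beside 47.8% of all tested genes. Of the 235 in the lower direction 141 (60%) were lower there, beside 52.2%. The spleens and tumors came from the same mice, so these shares do not rest on separate animals.

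For some of the members described above the values of the tissues stood side by side as follows. S1pr1 differed by 0.38 in spleen and 0.68 in tumor, and Ccr7 by 0.19 and 0.43. Klf2 differed by 0.30 in spleen and -0.22 in tumor, and Cd28 by 0.31 and -0.14. Foxp3 differed by -0.10 and 0.83. In tumor the CD8 genes Cd8a and Cd8b1 differed by -1.06 and -1.12, and the myeloid gene C1qa by -0.01. Whether other cells in the sorted tumor samples enter the tumor differences was not tested. Ccr6 differed by -0.33 and 0.71, whereas Tbx21 differed by -0.31 and -0.30. Clspn differed by 0.55 in spleen and -0.06 in tumor, and Zfp771 by -0.77 and -0.83. Of the members described above, some were at an unadjusted interaction p below 0.05, beside 2.76% of all genes. They were Klf2, Foxp3, Cd8a, Cd8b1, Clspn, Ikzf2, Gm10052, Epn2, Gm14052, Faap100, Hgs and Gm7332. None passed the adjusted threshold. Clspn, Gm10052, Epn2, Gm14052 and Faap100 were chosen by their p in spleen, and Hgs and Gm7332 by their difference there. The interaction uses those same spleen values, so the choice itself makes a low interaction p likely. Gm10052 differed by -0.58 in spleen and 0.03 in tumor, Epn2 by 0.73 and -0.51, and Ikzf2 by -0.05 and 0.63.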

How the data were processed

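RNA of sorted Tregs was measured in 11 libraries, of which the 6 spleen libraries, 3 for each genotype, entered the main comparison. Samples were grouped by their labels. Libraries were depleted of ribosomal RNA, and per the labels and methods the authors quantified the reads with kallisto against mm10, aggregated them by gene symbol in sleuth 0.30.0 and deposited log2(n + 1). These deposited log2 values were used without further scaling. Neither the scaling of n nor the kallisto version and annotation is stated. No counts were used, so no count model was fitted and no counting interval can be given. Among 78 ribosomal protein genes log2 n did not rise with log2 transcript length (slope -0.31), so levels of genes may already be per length.

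Genes with a mean of at least 0.5 over the 6 libraries were compared by limma 3.58.1 in R 4.3.3 (mean-variance trend, Benjamini-Hochberg threshold 0.05), which was tested on simulated data. For single library measures an exact permutation test was used (two-sided, scipy 1.17.1). Replicates are not stated to be separate animals, so p-values measure only the spread between these samples. The members and gene lists were chosen with earlier results of these data known. Named were Cd177, Foxp3 and genes within 250 kb of them, the 20 most abundant genes, the 8 smallest p in each direction, the 5 largest differences in each direction among non-overlapping genes with a mean of at least 3, and list members by level and p. Near copies were searched with blastn 2.17.0 in GENCODE M21 transcripts. Alternatives changed scaling, pseudocount (0.1 or 5), filter, correction, variance model, replicate block and libraries. Values of some list members are not reported here.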

Additional observations from a re-analysis of the deposited data

How the results depend on the processing

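The count of 0 called genes between the genotypes in spleen held under all 21 alternatives, and the smallest adjusted p under any of them was 0.202, without wild-type replicate 1. At an unadjusted p below 0.05 the counts moved from 269 higher and 235 lower to 158 and 130 in a fit of all 11 libraries. With equal library totals they were 403 and 107, so that 79% of the genes at that p were higher, beside 53.4% as deposited. A minimum mean of 3 left only 8419 genes to test, of which 197 were higher and 139 lower. With 1 library left out the counts ran from 201 to 387 higher and from 193 to 334 lower, the highest without wild-type replicate 1. Equal totals shifted the median over all genes to 0.063. The totals averaged 764000 in the knockout and 800000 in the wild type, and 489000 and 484000 without Gm12896. For the knockout effect between tissues 1 gene, Gm45837, was called with a pseudocount of 0.1 and 1 without wild-type spleen replicate 2, the range over left-out libraries being 0 to 1. It is named after its values were seen. Its adjusted p ran from 0.0106 to 1 over the alternatives.

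The replicate block gave 263 higher and 213 lower genes at an unadjusted p below 0.05 and 0 called genes. Deviations of spleen libraries with the same number correlated at -0.193, 0.043 and -0.044, and those with different numbers at -0.173 to 0.237. With 3 libraries a group, these values cannot show whether samples of the same number share anything else. Of 58 single gene differences 54 kept their sign under each alternative that could be fitted. The 58 include the 26 genes chosen from these same libraries by smallest p or by size, whose groups do not overlap. Leaving out a library cannot reverse the sign of such a gene, so this share is no measure of support. With libraries left out, Foxp3 ran from -0.41 to 0.07, Il2ra from -0.08 to 0.15, Cd4 from -0.21 to 0.01 and Bcl2l1 from -0.17 to 0.02. Of 420 medians of gene lists under alternatives 10 moved by more than the spread between libraries. The causes of these shifts were not tested. With 3 libraries a group, differences smaller than the intervals given could not be told from 0. Larger ones were not called either, since the intervals are not adjusted for the number of genes. The read depth of each library cannot be read from these values.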

Other observations

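Some copies of other genes were present in most spleen libraries and near 0 in 1. They were chosen after their values were seen. Gm28438, which is 99.7% identical to mt-Nd3 over 345 bases, was at 0.00 in knockout replicate 3 and at 6.80 to 7.66 in the other 5 libraries, while mt-Nd3 ran from 7.90 to 8.70. Gm10241, identical over 286 bases to Sumo2, was at 0.01 in knockout replicate 3 and at 4.98 to 5.74 elsewhere, while Sumo2 ran from 6.66 to 7.04. Gm12396, identical over 306 bases to Psenen, a subunit of gamma-secretase, was at 0.44 in wild-type replicate 2 and at 3.04 to 5.0 elsewhere, while Psenen ran from 5.92 to 6.23.

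Other genes stood apart in 1 library, also chosen after their values were seen. Slc15a2, a peptide transporter gene, was at 1.2 in wild-type replicate 1 and at 3.71 to 6.17 in the other libraries. Gpx3, a secreted glutathione peroxidase, was at 7.07 in wild-type replicate 2 and at 3.17 to 3.40 elsewhere. Mlec, the gene of the endoplasmic reticulum lectin malectin, differed between the genotypes by 1.32 (0.41 to 2.23), at 2.74, 3.57 and 3.36 in the knockout and 2.50, 2.19 and 1.04 in the wild type.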
